A study of Mus musculus with 16 samples.

Results

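The response of NIH3T3 mouse fibroblasts to 10 µM azacytidine was compared between a line transfected with Erbb2 and the untransfected parent cells. The comparison used 12 of the 16 arrays of the series, taken by their titles: 8 arrays of Erbb2-transfected cells at 10 µM and 4 arrays of untransfected cells at 10 µM. The remaining 4 arrays, of Erbb2-transfected cells at 5 µM, entered the fit only as a further group that adds to the estimate of the spread. Each array carried treated RNA in 1 channel and, in the other, RNA of the same line without drug, so each value is a response to the drug and not a level. The quantity reported is the response in Erbb2 cells minus the response in untransfected cells. The untransfected cells were the control experiment of the study's design, and all groups share the NIH3T3 background and the comparison with their own untreated cells. The duration of treatment, the vector and promoter that drove Erbb2, and whether the transfected line was 1 clone are not given in the sources that were used. Erbb2 had no probe that could be measured, so the transfection itself could not be checked. Ratios hold no levels, so the fibroblast identity of the cells could not be checked by marker level either, although 19 of 24 fibroblast markers had values.

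Azacytidine is a cytidine analogue that is built into RNA and DNA and traps DNA methyltransferases on DNA, so that dividing cells lose cytosine methylation. It is also toxic to cells and can disturb protein synthesis through its incorporation into RNA. Erbb2 is a receptor tyrosine kinase of the epidermal growth factor receptor family, whose overexpression drives the MAPK and PI3K pathways and can transform fibroblasts. The integrated stress response is a programme in which the transcription factor Atf4 raises amino acid transporters, aminoacyl-tRNA synthetases and biosynthetic enzymes. The unfolded protein response raises chaperones of the endoplasmic reticulum.

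The arrays at 10 µM held from 16153 to 18505 ratios each. The interquartile range of an array was 0.751 to 1.36 on the log2 scale, and widest on Erbb2 arrays 6, 3 and 5. Arrays of a group resembled each other weakly. The mean Pearson's r over features, which are not independent, was 0.032 for pairs of Erbb2 arrays with the same dye arrangement and -0.0017 for pairs with opposite arrangements. In untransfected cells these means were 0.137 and 0.086. Nothing in the labels says that the arrays come from separate cultures, so p-values measure the spread between these arrays. Because whole cultures were measured, fewer cells of a kind and less RNA per cell cannot be told apart.

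The direction of every value rests on an assumption about the dyes. Values were read as Cy5 over Cy3, and the sign was turned on arrays with Cy3 on the treated RNA. The numerator is not stated, so each direction given is the likely one, and all would turn together if it were Cy3. The untransfected arrays are labelled with 1 dye in both channels, Cy5 on arrays 1 and 2 and Cy3 on arrays 3 and 4, and the label of the treated channel was used. If the other dye was on the treated RNA of those 4 arrays, their signs would turn against those of the Erbb2 arrays. Under the labels as given, 79 of 12420 features (0.636%) passed the threshold in both lines with the same sign and 11 (0.0886%) with opposite signs, and the other reading would exchange these numbers.

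Azacytidine drew different responses from the lines at a small share of features. Of 12420 features, 101 (0.813%) had an adjusted p under 0.05 for the difference in limma and so passed, 78 of them higher in Erbb2 cells (0.628%) and 23 lower (0.185%). Among the 7832 features with a gene symbol, 66 (0.843%) passed, 58 higher and 8 lower. Most of the features passed in untransfected cells and did not pass in Erbb2 cells. Of the 101, 71 passed in untransfected cells alone, 11 in Erbb2 cells alone, 11 in both with opposite signs, 3 in both with the same sign and 5 in neither. All 23 lower features were above 0 in untransfected cells, and 1 of the 78 higher features was above 0 there. Their choice by the difference makes such signs likely, and 6595 of all 12420 features were above 0 there. The fitted response was greater in size in untransfected cells for 84 of the 101, and for 6834 of all 12420 features. The untransfected response rests on fewer arrays and has the larger standard error, which by itself makes greater sizes there likely in both counts. The 6834 therefore do not show a stronger response in untransfected cells. Over all features 249 passed in untransfected cells alone and 67 in Erbb2 cells alone, a lean in the same direction as the calls among the 101. The arrays of the lines did not overlap for 100 of them, all 78 higher ones included (2.99% of all features, 2.09% with Erbb2 cells higher), which their choice by a small p makes likely.

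**Figure D1:**
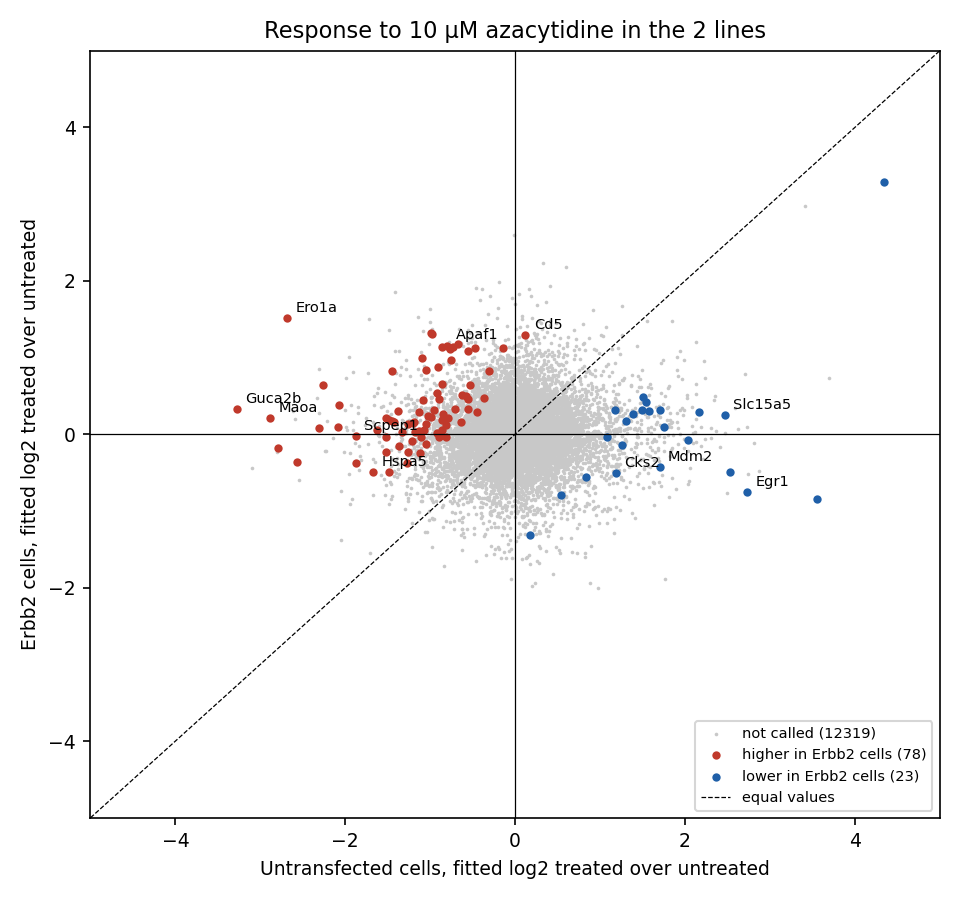
Fitted log2 ratio of treated over untreated RNA in untransfected cells (x axis, 4 arrays) against that in Erbb2 cells (y axis, 8 arrays), 1 point per feature. The 78 features higher in Erbb2 cells (red) lie mostly at negative values of the untransfected cells, the 23 lower ones (blue) at positive values, and the dashed line marks equal responses.

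Fitted on the 12 arrays at 10 µM alone, leaving the 5 µM arrays out of the model, 41 features passed in place of 101. Of the 41 named genes that had passed, 19 then lost their call, with adjusted p from 0.0503 to 0.166 in limma: Arhgef17, Cd96, Ero1a, Fth1, Ftl1, Gstp1, Guca2b, H4c8, Hspa5, Hspd1, Iffo1, Itgb1, Maoa, Ndufa6, Nmral1, Npc2, Osbpl6, Sod1 and Uqcrq. Calls were also fewer without single untransfected arrays. Without untransfected array 1, 2 or 4, 67, 63 and 60 features passed, and 40 of the 101 passed in each of the 12 fits that left out 1 array. With the sign of the untransfected arrays turned, 351 features passed, 72 higher and 279 lower. Of the 101, 53 passed under both readings, 52 of them with opposite signs. Cd5 was the 1 feature that passed with the same sign under both.

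The 101 features were chosen on arrays of both dye arrangements, so that a like sign in both is fixed in large part by the choice. All 101 had it, beside 54.3% of all features. Over all features the differences from the arrangements had a Pearson's r of only 0.038. Each arrangement holds 4 Erbb2 and 2 untransfected arrays. Alone they gave 2 calls with the treated RNA in Cy5 and 0 with it in Cy3 in limma, where 849 features had an unadjusted p under 0.05. For Egr1 the difference was -3.34 in the Cy5 arrangement and -3.63 in the Cy3 arrangement. For Apaf1 it was 2.13 and 1.78. Some of the greatest differences depended more on the arrangement. Guca2b had 5.27 and 1.83, and Ero1a had 3.10 and 5.26.

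**Figure D2:**
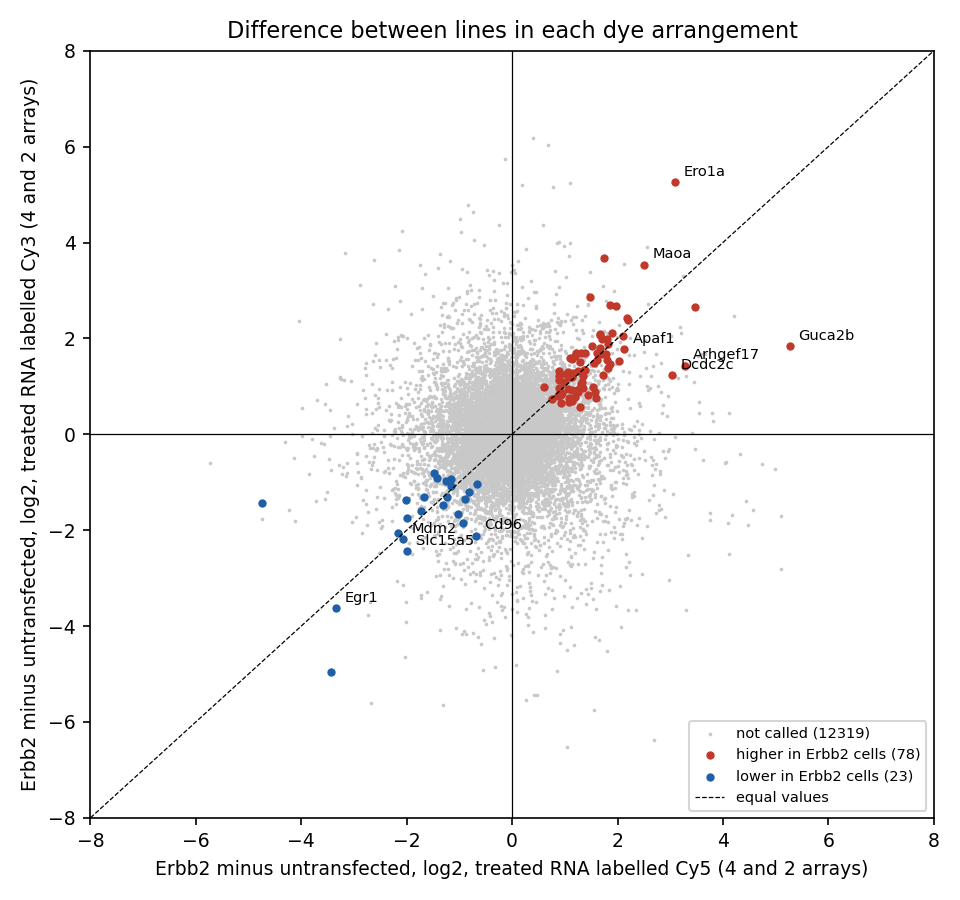
Difference between the lines (Erbb2 minus untransfected, log2) from arrays with the treated RNA in Cy5 (x axis) against that from arrays with it in Cy3 (y axis), 1 point per feature. The 101 features that passed, chosen on these arrays, lie in the quadrants where both arrangements have 1 sign, with Egr1 at -3.34 and -3.63 and Guca2b at 5.27 and 1.83.

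Of the 23 features lower in Erbb2 cells, 8 have a symbol, among them regulators that azacytidine raised in untransfected cells. All 8 with a symbol rose in untransfected cells and passed there, as did 0.596% of all features, and none of the 8 passed in Erbb2 cells. They include early response and feedback genes, Egr1, Nfkbia and Mdm2. With the untransfected sign turned, the differences of all 8 reversed. Egr1 (1.98), Mdm2 (1.28), Nfkbia (2.46) and Slc15a5 (2.72) then passed as higher in Erbb2 cells. Iffo1 and H4c8 did so too, and Cks2 and Cd96 did not pass. In the descriptions that follow, the range of the 8 Erbb2 arrays is given with its median, then the 4 untransfected arrays in the order of their numbers, and ± is the standard error of the fitted value.

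Egr1, a zinc finger transcription factor that growth signals switch on within minutes (Entrez Gene 13653), ran from -1.79 to 0.22 on the 7 Erbb2 arrays with a value, with a median of -0.40. In untransfected cells it had 2.41, 3.48, 1.97 and 3.06. All untransfected arrays lay above all Erbb2 arrays. The difference was -3.48 ± 0.39, or 11.2-fold lower in Erbb2 cells, with an adjusted p of 0.000465 from limma. Egr1 rose by 2.73 ± 0.31 in untransfected cells and had -0.75 ± 0.23 in Erbb2 cells, which did not pass.

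Mdm2, the ubiquitin ligase that p53 induces and that in turn degrades p53 (17246), ran from -0.66 to 0.05 in Erbb2 cells, with a median of -0.55. The untransfected arrays had 1.85, 1.48, 1.44 and 2.04, far from the Erbb2 range. The difference was -2.13 ± 0.22, and its adjusted p from limma was 0.000162. Both of its 2 probes passed, at -2.55 and -1.71. Nfkbia, which keeps NF-kappaB out of the nucleus (18035), ran from -0.19 to 0.87 in Erbb2 cells around a median of 0.21. Its untransfected arrays had 2.51, 2.34, 1.12 and 2.70, so that array 3 came nearest to the Erbb2 range without entering it. The difference was -1.87 ± 0.28 (limma, adjusted p = 0.00346).

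Slc15a5, which belongs to a family of peptide transporters (277898), ran from -0.25 to 0.78 in Erbb2 cells with a median of 0.18. The untransfected arrays lay far above, at 2.23, 2.81, 2.50 and 2.33. The difference was -2.22 ± 0.21 (limma, adjusted p = 7.03e-05). Cks2, a small subunit that binds cyclin-dependent kinases (66197), ran from -1.06 to 0.18 in Erbb2 cells, with a median of -0.51. In untransfected cells it had 1.37, 0.94, 1.12 and 1.33, again with no overlap. The difference was -1.69 ± 0.22 (limma, adjusted p = 0.000944).

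Iffo1 and Cd96 had wider spreads. Iffo1, related to intermediate filament proteins (320678), ran from -1.45 to 1.13 in Erbb2 cells with a median of 0.18, and had 1.41, 1.87, 3.29 and 1.57 in untransfected cells. The difference was -2.11 ± 0.43 (limma, adjusted p = 0.0313). It lost its call in 6 of the 12 fits that left out 1 array, without Erbb2 array 4, 5 or 8 or untransfected array 1, 2 or 3, with an adjusted p of 0.133 and a difference of -1.76 without untransfected array 3. Cd96, a receptor of lymphocytes (84544), ran from -0.79 to 0.32 with a median of -0.03 in Erbb2 cells and had 0.78, 0.48, 1.76 and 2.02 in untransfected cells. Its difference of -1.40 ± 0.30 passed narrowly (limma, adjusted p = 0.0479) and lost its call in 10 of the 12 fits, keeping it only without Erbb2 array 1 or untransfected array 2. Its adjusted p was 0.19 without untransfected array 4.

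H4c8, a histone H4 gene (69386), was lower by -1.12 ± 0.20 (limma, adjusted p = 0.0157). It had 0.93, 1.03, 1.10 and 1.27 in untransfected cells and -0.28 to 0.49 in Erbb2 cells. Histone H4 genes are near-identical in their coding sequence, so a cDNA probe may read several of them. The call was lost without untransfected array 1, 2 or 4, with a highest adjusted p of 0.0622 and a difference of -1.08.

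Several genes moved in opposite directions in the lines. Under the dye labels as given, 11 features rose in Erbb2 cells and fell in untransfected cells with both responses past the threshold, and 9 of them have a symbol: Apaf1, App, Grn, Hoxb1, Hyi, Lhfpl2, Npc2, Psap and Slk. For each of these genes all 8 Erbb2 arrays were above 0 and all 4 untransfected arrays below 0, which their choice makes likely. The opposite directions of these 9 rest on the dye labels of the untransfected cells, as do the signs of most other differences. With that sign turned, none of them passed and their differences ran from -0.20 for Grn and for Slk to 0.51 for Hoxb1, since their responses had like sizes in the lines.

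Apaf1, the scaffold on which caspase-9 is activated in apoptosis (11783), ran from 0.79 to 1.40 on the Erbb2 arrays with a median of 1.23. On untransfected arrays it had -0.87, -0.78, -0.81 and -0.74. The groups lay far apart and each was narrow. The difference was 1.96 ± 0.17, or 3.88-fold, with an adjusted p of 4.30e-05 from limma. The response was 1.15 ± 0.10 in Erbb2 cells and -0.80 ± 0.14 in untransfected cells.

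Hyi, a hydroxypyruvate isomerase (68180), ran from 0.81 to 1.49 in Erbb2 cells with a median of 1.09, and had -0.86, -0.69, -0.80 and -0.72 in untransfected cells. The difference was 1.87 ± 0.16 (limma, adjusted p = 4.30e-05). Hoxb1, a homeobox gene of hindbrain patterning (15407), ran from 0.91 to 1.53 with a median of 1.19 and had -0.56, -0.61, -0.55 and -0.96 in untransfected cells. No array of either group entered the range of the other. The difference was 1.85 ± 0.19 (limma, adjusted p = 0.000125).

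Lhfpl2, a tetraspan membrane protein gene (218454), ran from 0.70 to 1.60 in Erbb2 cells with a median of 0.86. Its untransfected arrays had -0.94, -0.97, -1.51 and -0.95, with array 3 lower than the rest. The difference was 2.08 ± 0.21 (limma, adjusted p = 0.000114). Slk, a kinase that acts on the cytoskeleton (20874), spread more widely, from 0.22 to 1.38 with a median of 1.08 in Erbb2 cells, and had -1.11, -1.10, -0.73 and -1.23 in untransfected cells. The difference was 1.89 ± 0.31 (limma, adjusted p = 0.00733). App, the amyloid precursor protein (11820), ran from 0.55 to 1.25 around a median of 0.87 and had -0.88, -0.84, -0.68 and -1.23 in untransfected cells. It differed by 1.78 ± 0.20 (limma, adjusted p = 0.000246).

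Nmral1, a sensor of the cell's redox state (67824), had a similar difference and a wide spread. The Erbb2 arrays ran from -0.37 on array 6 to 2.06 on array 7 with a median of 1.30, and the untransfected arrays had -0.69, -0.66, -0.64 and -0.94. The difference was 1.87 ± 0.40 (limma, adjusted p = 0.0449). It passed in 2 of the 12 fits that left out 1 array, those without Erbb2 array 2 or 6, with an adjusted p of 0.154 and a difference of 1.75 without untransfected array 4.

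**Figure D3:**
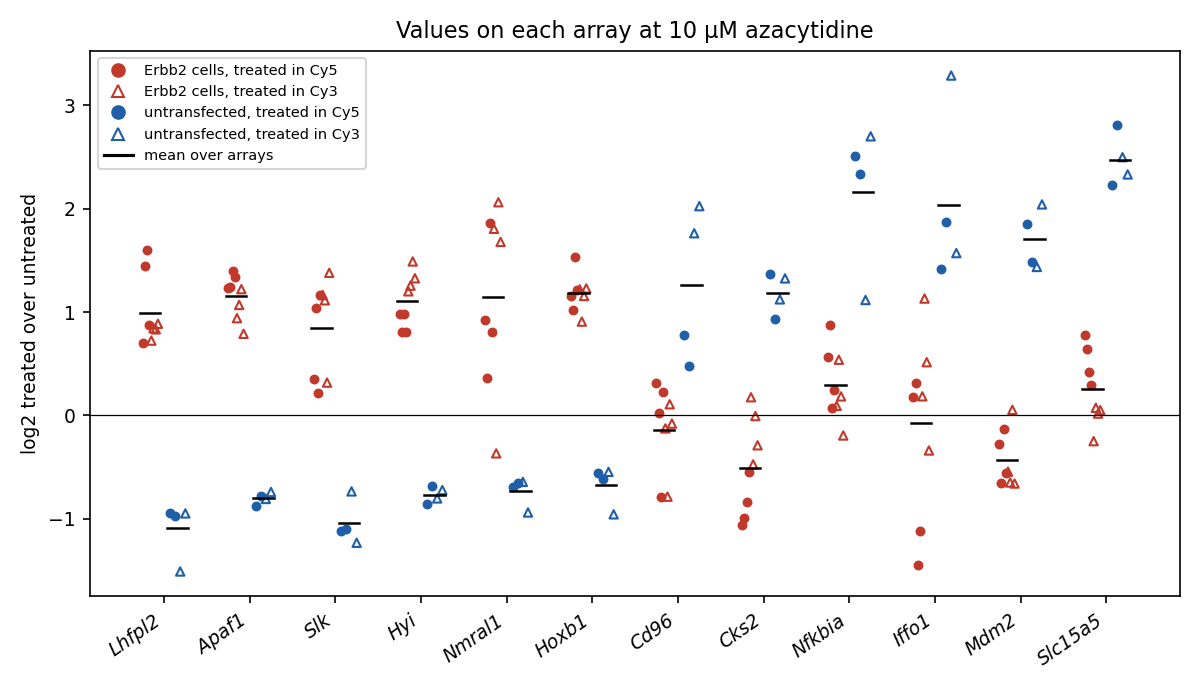
Log2 ratio of treated over untreated RNA of 12 genes on each array, for Erbb2 cells (8 arrays) and untransfected cells (4 arrays), after the sign was turned for arrays with the treated RNA in Cy3. Filled circles are arrays with the treated RNA in Cy5, open triangles those with it in Cy3, and bars are group means. For each gene the groups do not overlap, with Apaf1 between 0.79 and 1.40 in Erbb2 cells and between -0.87 and -0.74 in untransfected cells.

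Cd5, a surface receptor of T cells and some B cells (12507), differed in another way. It ran from 1.02 to 1.65 on the 8 Erbb2 arrays with a median of 1.26, and had 0.25, -0.18, 0.31 and 0.10 on the untransfected arrays. It rose in Erbb2 cells and stayed near 0 in untransfected cells. The difference was 1.17 ± 0.17 (limma, adjusted p = 0.00301), and with the untransfected sign turned it was 1.41 (adjusted p = 0.000162). It passed in each of the 12 fits that left out 1 array. Of 27 measured blood and immune markers 1 passed as higher, Cd5, and 0 as lower, beside 0.628% and 0.185% of all features. The median difference over the list was -0.19.

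Genes of the lysosome, the organelle that degrades proteins and lipids, had higher values in Erbb2 cells. Of 31 measured members 5 passed as higher and 0 as lower, beside 0.628% and 0.185% of all features. The median difference was 0.46, against -0.03 over all features, and 27 of 31 members were above 0. The median over the list was between 0.10 and 0.47 on each Erbb2 array and between -0.43 and -0.30 on each untransfected array, so the groups did not overlap. With the untransfected sign turned, the median difference of the list was -0.17.

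Psap, the precursor of the saposins that help degrade sphingolipids (19156), ran from 0.76 to 1.40 in Erbb2 cells with a median of 0.87, and had -0.70, -1.05, -0.79 and -0.50 in untransfected cells. It differed by 1.73 ± 0.18 (limma, adjusted p = 0.000162). Grn, progranulin, a secreted growth factor that also reaches lysosomes (14824), ran from 0.21 on array 6 to 0.82, with a median of 0.73. In untransfected cells it had -0.93, -0.83, -0.74 and -0.96, and the difference was 1.52 ± 0.18 (limma, adjusted p = 0.000465). Both genes passed in each fit that left out 1 array.

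Npc2, which hands cholesterol out of the lysosome (67963), was higher by 1.01 ± 0.16 (limma, adjusted p = 0.00718), and both of its 2 probes passed. The proton pump that acidifies lysosomes contributed Atp6ap1, an accessory subunit (54411), at 1.27 ± 0.18 (limma, adjusted p = 0.00236). Atp6v1a, its catalytic subunit, which was named after its values were seen, had 1.05 ± 0.18 (limma, adjusted p = 0.0135), and did not pass without untransfected array 1 or 4 (highest adjusted p = 0.0613). Other members did not pass, among them the protease genes Ctsl (0.93 ± 0.30), Ctsd (0.72 ± 0.22) and Ctsa (1.04 ± 0.26) and the membrane protein gene Cd63 (0.66 ± 0.16). Scpep1, a serine carboxypeptidase outside the list (74617), was higher by 1.85 ± 0.18 (limma, adjusted p = 0.000114). It had -1.83, -1.80, -1.94 and -1.93 in untransfected cells and -0.20 to 0.43 in Erbb2 cells.

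Stress response genes, those of the integrated stress and of the unfolded protein response, had lower values after drug in untransfected cells than in Erbb2 cells. Of 34 measured members 5 passed as higher in the difference and 0 as lower, beside 0.628% and 0.185% of all features: Ero1a, Yars, Eprs, Slc3a2 and Hspa5. Members above 0 numbered 32 of 34, and the median difference was 0.57. In untransfected cells 12 members fell and 0 rose, where 2.13% of all features fell and 0.596% rose, and the median was -0.67. In Erbb2 cells 1 fell, where 0.862% of all features fell, and the median was 0.00. The median over the list lay between -0.92 and -0.60 on untransfected arrays and between -0.21 and 0.09 on Erbb2 arrays. With the untransfected sign turned, the median difference was -0.72.

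The promoters of Hspa5 and Yars are shown because both genes passed, Yars with a call that rests on single arrays, and each holds 1 of the response's known promoter elements. The sequences are from RefSeq on build GRCm38.p6, run from 250 bases before to 50 bases after the start of transcription, and are given 5′ to 3′ on the gene's strand, with the element in capitals. Hspa5 lies at chr2:34771840-34772139 on the plus strand and Yars at chr4:129189653-129189952 on the plus strand.
Hspa5: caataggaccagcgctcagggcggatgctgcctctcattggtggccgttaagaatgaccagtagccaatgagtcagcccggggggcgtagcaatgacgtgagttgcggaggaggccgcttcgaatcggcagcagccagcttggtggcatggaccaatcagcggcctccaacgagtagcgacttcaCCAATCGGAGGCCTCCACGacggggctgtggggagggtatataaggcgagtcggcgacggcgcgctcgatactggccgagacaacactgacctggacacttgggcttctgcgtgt
Yars: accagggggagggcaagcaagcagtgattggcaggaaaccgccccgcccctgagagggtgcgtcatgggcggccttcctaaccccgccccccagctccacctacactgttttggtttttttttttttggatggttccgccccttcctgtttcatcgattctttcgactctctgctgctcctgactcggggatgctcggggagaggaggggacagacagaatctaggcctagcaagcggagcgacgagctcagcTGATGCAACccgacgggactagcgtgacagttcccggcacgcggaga
In Hspa5 the capitals mark the endoplasmic reticulum stress element, which begins 65 bases before the start. In Yars they mark the Atf4 element TGATGNAAN, which begins 3 bases after the start. Both strands were searched, and of the 34 measured members 30 had a promoter in the table. The Atf4 element was in 7 of these 30 genes (23.3%), compared with 2.77% of all measured genes, and the endoplasmic reticulum stress element in 6 (20.0%), compared with 0.19%. The list gathers known genes of these responses, so high shares follow in large part from its making. Of 50 genes that passed as higher and had a promoter, 2 (4.0%) held the Atf4 element. The endoplasmic reticulum stress element was in 1 of them (2.0%). Eprs, Slc3a2 and Ero1a, which also passed, gave no match or had no promoter to search. A match is a description of the letters in this window.

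Of the genes with the element of Yars, the asparagine synthetase Asns had a difference of 1.56 ± 0.42, Trib3, a pseudokinase induced by Atf4, 1.36 ± 0.47, Chac1, which degrades glutathione, 1.01 ± 0.28, and the tRNA synthetases Iars, Aars and Tars 0.38 ± 0.22, 0.16 ± 0.43 and -0.04 ± 0.28. None of them passed in limma, with adjusted p from 0.134 for Asns to 0.980 for Tars. Of those with the element of Hspa5, the chaperone Hsp90b1 had 0.91 ± 0.27, the lectin chaperones Canx and Calr had 0.56 ± 0.18 and 0.42 ± 0.16, Creld2, a protein of the endoplasmic reticulum, had 0.38 ± 0.71 and the cochaperone Dnajc3 had 0.11 ± 0.66, and none passed. Members with an element thus included ones near 0 and ones far above it.

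Eprs, the glutamyl-prolyl-tRNA synthetase (107508), ran from -0.14 to 0.62 in Erbb2 cells with a median of 0.09. In untransfected cells it had -1.30, -1.40, -1.19 and -1.79. The difference was 1.59 ± 0.19 (limma, adjusted p = 0.000506), and both of its 2 probes passed. Slc3a2, the heavy chain shared by several amino acid transporters (17254), ran from -0.71 to 0.10 with a median of -0.16. It had -1.46, -1.20, -1.46 and -1.94 in untransfected cells, and differed by 1.28 ± 0.21 (limma, adjusted p = 0.00718).

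Hspa5, the main chaperone of the endoplasmic reticulum (14828), was below 0 on all 12 arrays. It ran from -0.85 to -0.01 in Erbb2 cells with a median of -0.52, and had -1.67, -1.73, -1.63 and -1.67 in untransfected cells. The fall was the deeper one in untransfected cells, with a difference of 1.19 ± 0.21 (limma, adjusted p = 0.0157). The call was lost without untransfected array 2, 3 or 4, with a highest adjusted p of 0.064 and a difference of 1.14. Yars, the tyrosyl-tRNA synthetase, named after its values were seen, had 1.69 ± 0.35 (limma, adjusted p = 0.0390). It passed in 2 of the 12 fits that left out 1 array, those without Erbb2 array 5 or 6, with a highest adjusted p of 0.118 and a difference of 1.67 without untransfected array 1. Atf4 itself (11911) did not pass in the difference, at 0.48 ± 0.16 (limma, adjusted p = 0.277), although its ranges of -0.60 to -0.15 and -0.995 to -0.753 did not overlap.

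Ero1a, the oxidase that forms disulfide bonds in the endoplasmic reticulum (50527), had the greatest difference of the named genes, 4.20 ± 0.82, with a wide spread (limma, adjusted p = 0.0298). It ran from 0.15 to 3.83 on 7 Erbb2 arrays and had -1.35, -1.75, -4.66 and -2.98 in untransfected cells. The call was lost without Erbb2 array 1 or 8 or untransfected array 2, 3 or 4. Without untransfected array 3 the difference was 3.51 and its adjusted p 0.12.

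**Figure D4:**
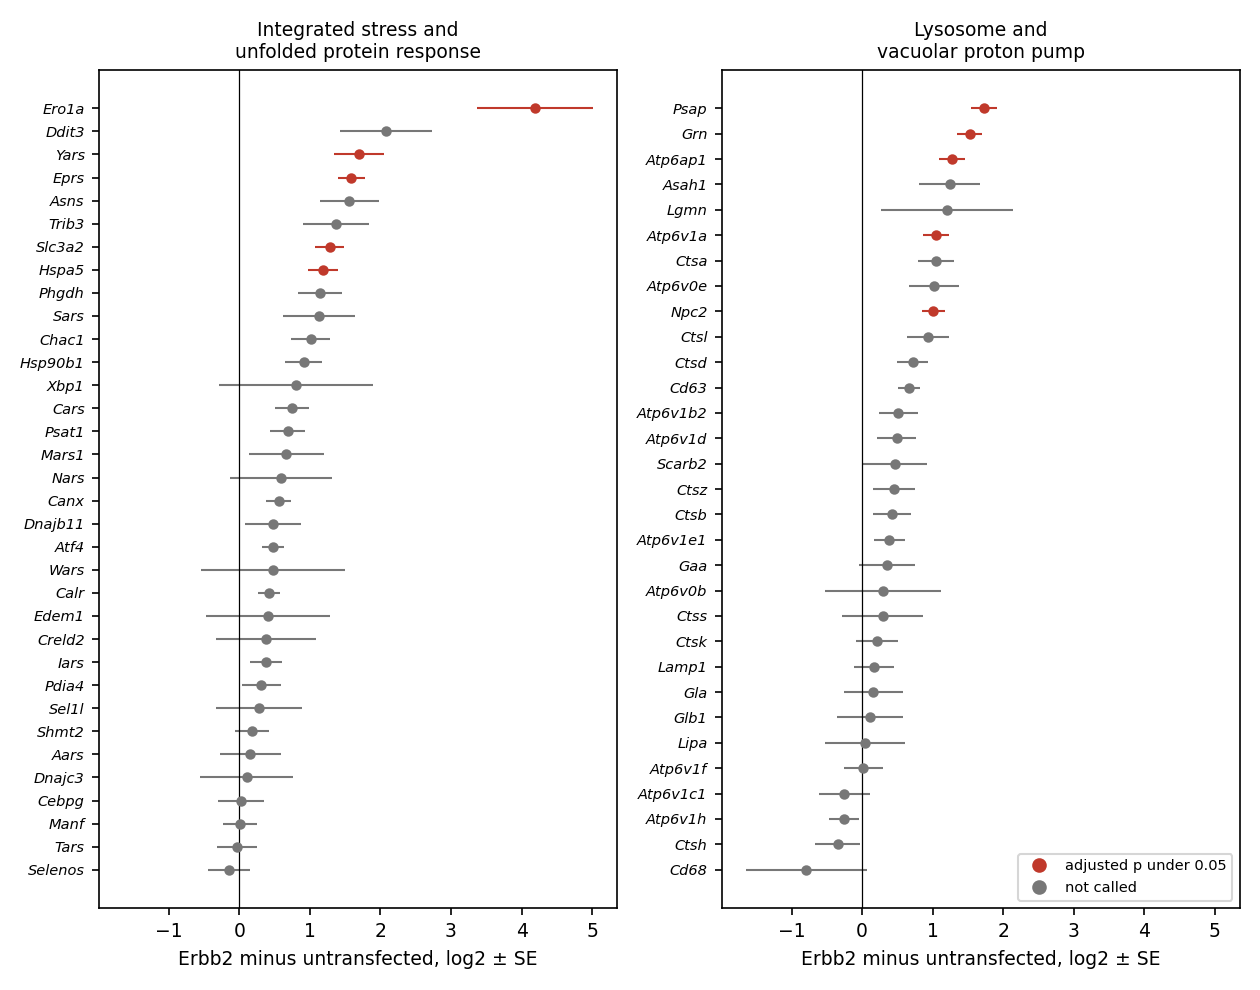
Difference between the lines (Erbb2 minus untransfected, log2, bars give the standard error) of each measured member of the lysosome list and of the list of integrated stress and unfolded protein responses. Members that passed are marked in colour, 5 of 31 and 5 of 34, and 27 and 32 members lie above 0.

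Some genes of iron storage and antioxidant defence were higher in Erbb2 cells. Of 23 measured members of the list 4 passed as higher and 0 as lower, beside 0.628% and 0.185% of all features. Members above 0 numbered 16 of 23, and the median difference was 0.51, or -0.62 with the untransfected sign turned. The median over the list overlapped between the lines, at -0.58 to 0.30 on Erbb2 arrays, lowest on array 6, and -0.72 to -0.40 on untransfected arrays. Fth1, the heavy chain of ferritin (14319), had -1.02, -1.03, -1.08 and -1.06 in untransfected cells, a very narrow range. It ran from -0.72 on array 6 to 0.46 in Erbb2 cells with a median of 0.24, and differed by 1.18 ± 0.21 (limma, adjusted p = 0.0141). Ftl1, the light chain (14325), differed by 0.90 ± 0.17 (limma, adjusted p = 0.0217), and both ferritin genes have close relatives in the genome that a cDNA probe may read. Gstp1, a glutathione transferase with a near-identical neighbour (14870), differed by 1.53 ± 0.30 (limma, adjusted p = 0.0273). Sod1, the cytosolic superoxide dismutase (20655), differed by 0.86 ± 0.18 (limma, adjusted p = 0.0389). The call of Fth1 was lost without untransfected array 1 or 2, at a highest adjusted p of 0.0571 and a difference of 1.14. Those of Ftl1, Gstp1 and Sod1 were lost in 5, 5 and 9 of the 12 fits, each time including all 4 untransfected arrays, with highest adjusted p of 0.0788, 0.098 and 0.134.

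Some mitochondrial genes passed as higher. Of 52 measured genes of oxidative phosphorylation 2 passed as higher and 0 as lower, beside 0.628% and 0.185% of all features. Members above 0 numbered 40, and the median difference was 0.35, or -0.038 with the untransfected sign turned. Uqcrq, a subunit of complex III (22272), differed by 1.36 ± 0.26 (limma, adjusted p = 0.0208), and Ndufa6, a subunit of complex I (67130), by 0.94 ± 0.20 (limma, adjusted p = 0.0404). Both had negative values on all 4 untransfected arrays, from -1.13 to -0.58 and from -1.32 to -0.51. The call of Uqcrq was lost without untransfected array 2, 3 or 4, with a highest adjusted p of 0.0865. That of Ndufa6 held only without Erbb2 array 6 or 8 or untransfected array 4, with a highest adjusted p of 0.162. Hspd1, the chaperonin of the mitochondrial matrix (15510), passed at 1.04 ± 0.18 (limma, adjusted p = 0.0123). It was the 1 of 40 chaperones that passed, as higher, beside 0.628% of all features. Its call was lost without untransfected array 2 or 4, with a highest adjusted p of 0.0547.

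Matrix and adhesion genes of fibroblasts were represented by Fn1 and Itgb1. Fn1, fibronectin (14268), had -1.63, -1.58, -1.56 and -1.73 in untransfected cells and ran from -0.43 to 1.01 in Erbb2 cells with a median of -0.02. The difference was 1.68 ± 0.25 (limma, adjusted p = 0.00361). Its 5 probes gave 1.16 to 2.37, and 1 of them passed alone. Itgb1, the integrin beta 1 chain that binds fibronectin with its partners (16412), differed by 0.88 ± 0.18 (limma, adjusted p = 0.0313). Its 6 probes gave 0.35 to 1.13, and 3 passed. Its call was lost in 8 of the 12 fits, without Erbb2 array 1, 2, 4 or 7 or any 1 untransfected array, with a highest adjusted p of 0.139. These were the 2 of 48 genes of extracellular matrix and adhesion that passed, both as higher, beside 0.628% of all features. The median difference over the list was 0.03. Of 19 measured fibroblast markers 1 passed as higher, which was Fn1, beside the same 0.628%, and the median difference was 0.47. Markers of other cell types gave 0 calls in limma among 13 epithelial, 27 muscle and 17 adipocyte genes, of which 2, 1 and 4 had an unadjusted p under 0.05. Over all features 9.72% had such a p, the share against which these counts and those of later lists stand. The medians on single arrays of the fibroblast list ran from -0.12 to 0.32 in Erbb2 cells and from -0.30 to -0.15 in untransfected cells. Those of the epithelial list ran from -0.32 to 0.20 and from 0.14 to 0.38, and their part in the results was not tested.

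Klf4, a transcription factor of growth arrest and stemness (16600), was the early response gene that went the other way from Egr1 and Nfkbia. It had -1.60, -1.31, -0.61 and -1.21 in untransfected cells and ran from -0.34 to 0.34 in Erbb2 cells, with a difference of 1.21 ± 0.18 (limma, adjusted p = 0.00385). On the early response and NF-kappaB feedback list, 1 of 26 measured genes thus passed as higher and 2 as lower. Over all features 0.628% and 0.185% did so, and the median of the list was -0.21. In the response of untransfected cells 2 members of the list rose and 2 fell, beside 0.596% and 2.13% of all features. Among 20 measured p53 targets 1 passed in each direction, Apaf1 higher and Mdm2 lower, beside the same shares. The median of these targets was 0.44. Cdkn1a, the cyclin-dependent kinase inhibitor p21 (12575), did not pass at -1.60 ± 0.85 (limma, adjusted p = 0.584). The dye arrangements disagreed on Cdkn1a, with -3.54 in Cy5 and 1.05 in Cy3.

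The lists of interferon response and cell cycle genes had negative median differences. Of 20 measured interferon response genes 0 passed in limma and 5 had an unadjusted p under 0.05, with a median difference of -0.59. In untransfected cells 3 of them rose, beside 0.596% of all features, and the median was 0.57, whereas the median in Erbb2 cells was 0.09. On single arrays the list had medians of 0.43 to 0.82 in untransfected cells and -0.19 to 0.34 in Erbb2 cells, and with the untransfected sign turned its median difference was 0.70. Ifit3, an interferon-induced inhibitor of viral RNA translation, had a difference of -2.54 ± 0.63 and Bst2, which tethers virus particles, -1.38 ± 0.39, and neither passed (limma, adjusted p = 0.0952 and 0.156). Of 50 cell cycle and replication genes 1 passed as lower, Cks2, and 0 as higher, beside 0.185% and 0.628% of all features. Their median difference was -0.35, or 0.51 with the untransfected sign turned, and 10 of 50 were above 0.

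**Figure D5:**
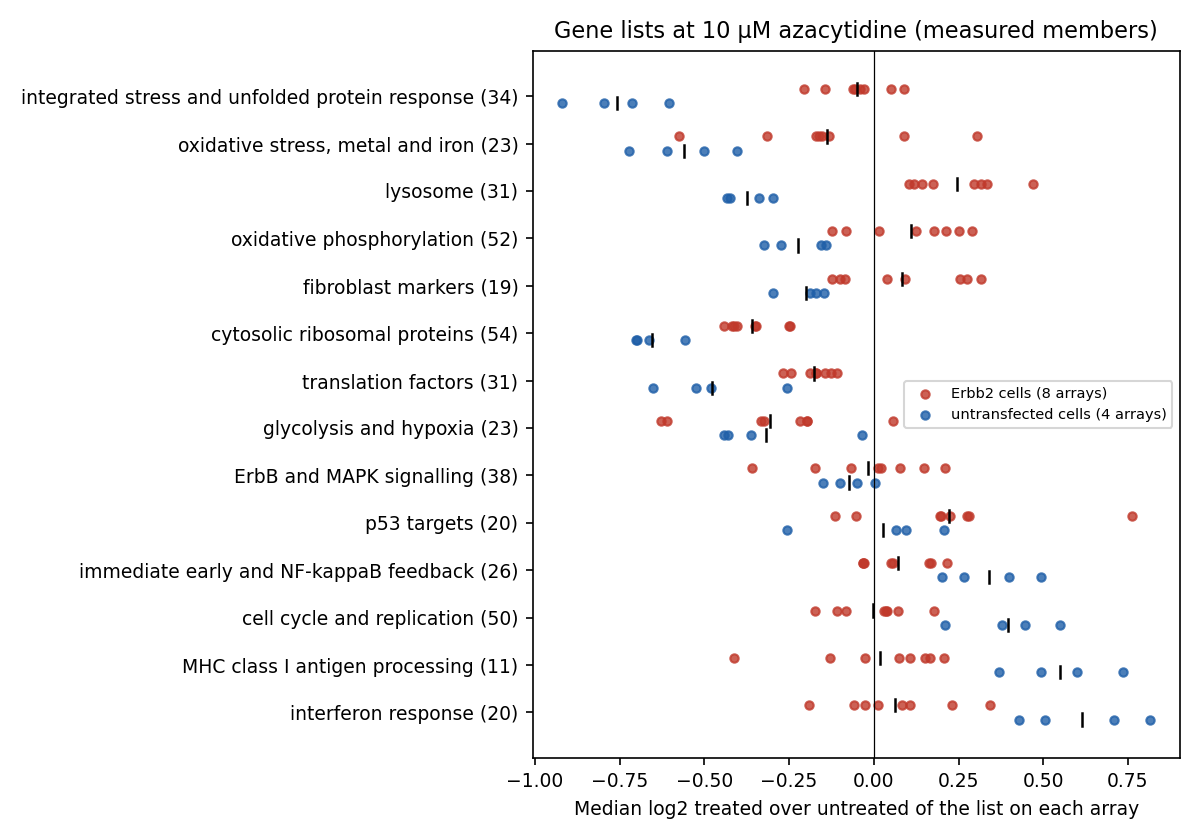
Median log2 ratio of treated over untreated RNA over the measured members of 14 gene lists on each array, with Erbb2 cells in red (8 arrays) and untransfected cells in blue (4 arrays), a tick at each group's mean and the number of members in parentheses. Of all lists measured, the arrays of the lines do not overlap for 8, each shown here, and overlap for 17, not all shown. The 8 are stress response, lysosome, oxidative phosphorylation, fibroblast markers, ribosomal proteins, cell cycle, MHC class I and interferon. The lysosome list lies at 0.10 to 0.47 against -0.43 to -0.30.

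Some ribosomal protein genes fell in each line. In untransfected cells 21 of 54 measured members fell, beside 2.13% of all features, and the median was -0.60. In Erbb2 cells 18 fell, beside 0.862%, and the median was -0.34. The difference had a median of 0.29 with 46 of 54 members above 0, or a median of -0.91 with the untransfected sign turned, and 0 passed in limma, where 14 had an unadjusted p under 0.05. For translation factors the medians were -0.45 and -0.24, with 0 of 31 passing in the difference and 9 at an unadjusted p under 0.05. Genes of the ErbB and MAPK pathways, the pathways downstream of the transfected receptor, gave a median difference of -0.01 over 38 members, and 0 passed in limma with 5 at an unadjusted p under 0.05.

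The DNA methylation machinery, the target of the drug, gave 0 calls among 9 measured genes in limma, with 3 at an unadjusted p under 0.05. Dnmt1, the maintenance methyltransferase (13433), differed by 0.39 ± 0.17 (limma, adjusted p = 0.489), although the groups did not overlap, at -0.01 to 0.79 in Erbb2 cells and -0.11 to -0.10 in untransfected cells. Dnmt3a, a de novo methyltransferase (13435), differed by 0.24 ± 0.27 over 4 probes (limma, adjusted p = 0.850), and Dnmt3b had no probe that could be measured. Of 18 germline genes that DNA methylation silences in somatic cells 0 passed in limma and 3 had an unadjusted p under 0.05, and the median was 0.12. Among 11 genes of antigen presentation by MHC class I 0 passed in limma, with 4 at an unadjusted p under 0.05. Its light chain B2m (12010) differed by 0.19 ± 0.29 and the peptide transporter Tap1 (21354) by -1.01 ± 0.50, and neither passed (limma, adjusted p = 0.892 and 0.548). The remaining lists gave 0 calls in limma: proteasome (28 genes, 5 at an unadjusted p under 0.05), glycolysis and hypoxia (23 and 5), imprinted genes (16 and 0) and cholesterol synthesis (8 and 1).

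Several of the greatest differences came from genes with deep negative values in untransfected cells and gaps. Maoa, monoamine oxidase A (17161), had -2.98, -2.49, -3.39 and -2.69 in untransfected cells and ran from -1.25 to 1.75 on 6 Erbb2 arrays, with a difference of 3.10 ± 0.52 (limma, adjusted p = 0.0185). Guca2b, uroguanylin (14916), had -5.07, -4.63, -1.34 and -2.06 in untransfected cells and a difference of 3.60 ± 0.69 over 7 Erbb2 arrays (limma, adjusted p = 0.0252). Arhgef17, a guanine nucleotide exchange factor (207212), shared the value of -5.07 on untransfected array 1 and had a difference of 2.61 ± 0.52 over 3 untransfected arrays (limma, adjusted p = 0.0313).

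The other genes of this kind each lacked a value on 1 untransfected array. Ift88, which builds cilia (21821), had -2.98, -0.98 and -2.75 and a difference of 2.91 ± 0.49 over 7 Erbb2 arrays (limma, adjusted p = 0.0185). Dcdc2c, a doublecortin domain gene (68511), had -3.01, -2.88 and -1.17 and a difference of 2.39 ± 0.37 (limma, adjusted p = 0.00718). Osbpl6, an oxysterol-binding protein (99031), had -3.17, -1.34 and -3.12 and a difference of 2.20 ± 0.43 (limma, adjusted p = 0.0268). Calls depended on single arrays for these genes. That of Maoa was lost without Erbb2 array 1 or untransfected array 1, 3 or 4 (highest adjusted p = 0.082 in limma), that of Guca2b without Erbb2 array 2 or 4 or untransfected array 1 or 2 (0.115), and that of Osbpl6 without Erbb2 array 1 or 2 or untransfected array 1 or 4 (0.211). Ift88 lost its call without untransfected array 1 or 4 (0.142) and Dcdc2c without untransfected array 1 or 2 (0.0523). Arhgef17 lost it without Erbb2 array 1, 2, 3, 4, 5 or 7 (0.0692), and its difference was 1.61 without untransfected array 1.

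Further genes that passed lay outside the rule for named genes and were chosen after their values were seen. Slc6a9, a glycine transporter, differed by 1.67 ± 0.21 (limma, adjusted p = 0.000684), Nit1, an amidase, by 1.62 ± 0.23 and Rcc2, a regulator of chromosome segregation, by 1.36 ± 0.19. The transcriptional coactivator Wwtr1, also called Taz, differed by 1.46 ± 0.23 (limma, adjusted p = 0.00678) over 3 probes, and Chka, a choline kinase, by 1.07 ± 0.20. Rgs2, which shortens G protein signals, differed by 1.40 ± 0.26, and Pdha1, a subunit of pyruvate dehydrogenase, by 1.41 ± 0.26. Cp, ceruloplasmin, the copper-carrying ferroxidase, rose in Erbb2 cells (0.83 ± 0.12), as Cd5 did, and did not pass in untransfected cells (-0.31 ± 0.17). It differed by 1.14 ± 0.21 (limma, adjusted p = 0.0157) and, unlike Cd5, did not pass with the untransfected sign turned. Leaving out 1 untransfected array ended the call of Rgs2 and of Chka (array 1, 2 or 3), of Pdha1 (array 2, 3 or 4) and of Cp (array 1 or 4), with highest adjusted p of 0.0776, 0.088, 0.0805 and 0.072 in limma.

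At 5 µM the Erbb2 cells gave values that may share untreated RNA with the 10 µM arrays, so they are set side by side only. Cd5 had 1.35 at 5 µM and 1.29 at 10 µM, Apaf1 0.84 and 1.15, Hoxb1 0.87 and 1.18, Hyi 0.75 and 1.11, Lhfpl2 0.90 and 0.99 and Psap 0.81 and 0.97. App had -0.08 and 0.87, and Grn 0.16 and 0.66. Egr1 had -0.44 and -0.75, Mdm2 -0.27 and -0.43, and Nfkbia 0.32 and 0.30.

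The promoters of the genes that passed had CpG counts that overlapped widely with those of all measured genes. The median number of CpG in the 300-base window was 21 over 6327 measured genes with a promoter, 24 over 50 genes that were higher and 12.5 over 6 genes that were lower, with no test. The quartiles were 12 and 29 for measured genes, 15.25 and 35.5 for higher genes and 5.5 and 26.25 for lower genes.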

How the data were processed

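RNA of treated and untreated cells was measured on 2-colour cDNA arrays. The deposited values are log2 ratios. The log2 base, a single constant per array and a placeholder for the ratio 100000 were inferred from the values, since low ratios matched 3-decimal ratios on every array. Image analysis, background correction and the numerator were not given in the sources used here, and intensities were not used. Signal over background is therefore unknown, and precision is limited by how many arrays there are. Placeholders were set to missing (74 to 167 per array at 10 µM).

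Samples were grouped by title. The first untransfected title has no replicate number and was numbered 1. The extract and label protocols speak of organs and animals and were not used. Probes were kept with values on 3 of 4 and 6 of 8 arrays and in both dye arrangements, which left 14813 of 20355. Probes of 1 gene symbol in the platform annotation were averaged, giving 12420 features. Of 14030 probes with 1 symbol, 13994 had their gene in the GRCm38.p6 reference annotation, and 0 symbols changed.

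All 16 arrays entered 1 limma model (limma 3.58.1, R 4.3.3, version 1.17.8 of data.table) with 3 groups and a shared dye term, followed by eBayes. The contrast was Erbb2 minus untransfected at 10 µM. Tests were two-sided, and p-values were adjusted by Benjamini-Hochberg over all features, with 0.05 as the threshold. The code was tested on simulated data. Named genes were the 15 highest and 15 lowest past the threshold, up to 4 members of each list, genes called in both lines with opposite signs, and 14 genes named whatever their value. Genes described on every array were the 6 highest and 6 lowest with all values. The comparison, the gene lists and the rules were chosen with earlier results of these data known.

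Same-numbered arrays of the lines did not deviate together, with correlations of their deviations from -0.0081 to 0.0022, and the numbers were not used as pairs. The dye was not removed from these deviations and differs between the lines on arrays 3 and 4, so the check cannot exclude pairs. The alternatives were the dye readings, dye terms, arrays used, filters, scaling, centring, weights, a test against a 1.2-fold difference, the replicate block and leaving out arrays.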

Additional observations from a re-analysis of the deposited data

Results flagged for a closer look

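Among the 90 groups of arrays of named genes that were checked, 6 held 1 array far from the others, and chance gives about 1 in 20. Fth1 had -0.72 on Erbb2 array 6, where the next array had -0.01, and Grn had 0.21 on the same array, where the next had 0.58. Scpep1 had 0.43 on Erbb2 array 8, next to 0.07. In untransfected cells Hoxb1 had -0.96 on array 4, next to -0.61, Nmral1 had -0.94 on array 4, next to -0.69, and Lhfpl2 had -1.51 on array 3, next to -0.97.

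For 9 genes the lines moved in opposite directions with both responses past the threshold, and the limma test of the difference passed. The differences, Erbb2 minus untransfected on the log2 scale, were 2.08 for Lhfpl2, 1.96 for Apaf1, 1.89 for Slk, 1.87 for Hyi, 1.85 for Hoxb1, 1.78 for App, 1.73 for Psap, 1.52 for Grn and 1.01 for Npc2. All rest on the dye label of the treated channel in untransfected cells.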

How the results depend on the processing

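The reading of the dyes changed the results most. Against 101 features under the labels as given, 351 passed in limma with the untransfected sign turned and 0 with the sign turned in neither line, where 663 had an unadjusted p under 0.05. With the untransfected sign turned, differences of named genes reversed for App (-0.032), Arhgef17 (-2.97), Atf4 (-1.29), Atp6ap1 (-0.65), Cd96 (1.12), Cks2 (0.69), Dcdc2c (-2.23), Dnmt3a (-0.79), Egr1 (1.98), Eprs (-1.26), Ero1a (-1.17), Fn1 (-1.57), Fth1 (-0.92), Ftl1 (-1.65), Grn (-0.20), Gstp1 (-0.64), Guca2b (-2.95), H4c8 (1.05), Hspa5 (-2.16), Hspd1 (-1.49), Iffo1 (1.96), Ift88 (-1.62), Itgb1 (-0.22), Klf4 (-1.16), Lhfpl2 (-0.10), Maoa (-2.68), Mdm2 (1.28), Ndufa6 (-0.91), Nfkbia (2.46), Npc2 (-0.094), Osbpl6 (-2.93), Scpep1 (-1.90), Slc15a5 (2.72), Slc3a2 (-1.75), Slk (-0.20), Sod1 (-0.93), Tap1 (1.01) and Uqcrq (-0.44). With the sign turned in neither line they reversed for Atf4 (-0.076), B2m (-0.60), Cd5 (-0.078), Cd96 (0.71), Dnmt1 (-0.20), Dnmt3a (-0.030), Ero1a (-1.32), Gstp1 (-0.16), Hoxb1 (-0.030), Hspa5 (-0.12), Hspd1 (-0.054), Hyi (-0.21), Ift88 (-0.43), Maoa (-0.85), Mdm2 (0.058), Nmral1 (-0.21), Npc2 (-0.13), Scpep1 (-0.14), Slc15a5 (0.23), Slc3a2 (-0.029), Slk (-0.089), Tap1 (0.29) and Uqcrq (-0.21). These settings turn signs by construction. Of the other settings, B2m reversed with the treated RNA in Cy5 only (-0.40) and when 1 array was left out, which gave -0.14 (without untransfected array 4) to 0.44, and Cdkn1a with it in Cy3 only (1.05), and the cause was not tested.

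The count of 101 was 2 with the treated RNA in Cy5 only and 0 in Cy3 only, which use fewer arrays, 41 with only the 12 arrays at 10 µM, 45 against a 1.2-fold difference and 189 with a value on every array, where fewer features were tested. It ran from 60 to 105 when 1 array was left out. Counts were within 1.5 times of 101 with no dye term (100), a dye term per group (103), a looser filter (72), single probes (146), placeholders kept (106), scaling (132), centring (108), array weights (127), group weights (98), robust eBayes (95) and without the 3 widest arrays (75). Setting dim whole-number ratios to missing, an alternative chosen after seeing the data, gave 101, of which 94 were shared.

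With the replicate number as a block, 0 features passed in limma and 744 had an unadjusted p under 0.05. Erbb2 arrays 5 to 8 have no same-numbered array in another group, so they drop out of that comparison. The pairing check, in which the dye was not removed, found no shared deviation. Its best match for each untransfected array was among Erbb2 arrays 5 to 8, so no untransfected array matched its own number best.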
